A study of Mus musculus with 12 samples.

Results

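The nuclear pore and nuclear transport genes of the mouse were followed in colorectal polyps and normal colorectal tissue. They were chosen by gene name: nucleoporins (Nup followed by a number), importins (Kpna, Kpnb, Ipo), exportins (Xpo), transportins (Tnpo), and Tpr, Ran, Ranbp1, Ranbp2, Rangap1 and Rcc1. This selection gave 49 of the 30139 genes or transcripts on the array, read by 72 probes. It was made for their log2 signals on these same arrays, with earlier results known, so calls and differences of members are given as a description and carry no p-value. Of the 49 genes, 47 passed the signal filter (well above background on each of the 4 arrays in some group) and were tested, while Kpna7, an importin alpha gene, and Nup62cl, named as like Nup62, were not well above background on any array.

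The arrays were Agilent single-colour arrays, 4 for each of 3 groups: polyps of Apc+/Δ716 mice, normal colorectal tissue of Apc+/Δ716 mice, and normal colorectal tissue of wild-type mice. All mice were C57BL/6N females of 14 weeks, and no other allele or treatment is named. The Δ716 allele truncates Apc, a tumour suppressor and brake on the Wnt pathway, and these mice inherit it in heterozygous form. Polyps of such mice are known to arise where the remaining normal allele is lost, and the state of that allele was not measured here. Polyp and normal arrays of the mutant mice share the mouse numbers 103, 106, 107 and 110, while wild-type arrays came from mice 102, 104, 105 and 108. The labels do not say whether a polyp sample pooled several polyps of a mouse.

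Nuclear pores are large channels through the nuclear envelope. Outer and inner rings of scaffold nucleoporins hold a central channel lined with phenylalanine-glycine repeats, through which importins and exportins carry their cargo. The small GTPase Ran gives the direction: it is loaded with GTP in the nucleus by Rcc1 and made to hydrolyse it in the cytoplasm by Rangap1 with Ranbp1. Animal cells take their pores apart in mitosis and build new ones as they grow, and growing cells import ribosomal proteins and histones in large amounts.

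Levels are log2 signals from which the array's 75th percentile was subtracted, and they serve to compare groups for 1 gene, not genes with each other. A gene was called where the limma adjusted p (Benjamini-Hochberg over 20082 tested genes, two-sided) was under 0.05. Per array, 64.6% to 73.8% of spots were well above background and none was saturated. The number of arrays limits the precision. Slide 1 held every wild-type array, slide 2 mice 103 and 106, and slide 3 mice 107 and 110, so wild type and slide cannot be told apart. In these bulk samples, a smaller number of cells of a type and less RNA per cell cannot be told apart either.

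Promoter windows, 250 bases before to 50 after the annotated start (RefSeq, GRCm38.p6), were found for 40 of the 49 genes. The motif CACGTG, an E-box bound by factors such as Myc with Max, stood in the windows of 8 of these 40 genes (20.0%) and of 8.09% of all 27025 genes with a window. CCAAT, the motif of the factor NF-Y, stood on either strand (written ATTGG on the other) in 22 of 40 (55.0%) and in 41.1% of all genes. The letters CTTTGAA and CTTTGAT, read by the Wnt pathway's factors of the TCF family, stood in 1 and 2 of 40 (2.5% and 5.0%), against 5.93% and 4.29% of all genes. The motifs were searched on both strands, CACGTG reads the same on each, and a site cannot match both CTTTGAA and CTTTGAT. Windows of the transport genes had a median GC content of 64.0%, against 52.7% over all windows. A match of letters is no evidence of binding, and the part of GC content in these shares was not tested.

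To show where the E-box lies in genes called higher in polyps, stretches of 120 bases from the region before the start are given for Ran, Ipo7, Nup93 and Nup188, with CACGTG and CCAAT (or ATTGG) in capitals, 5′ to 3′ along the gene. CACGTG begins 118 bases before the start in Ran, 137 in Ipo7 and 175 in Nup93, and Nup188 has it at 66 and at 24 bases.
Ran, chr5:129019986-129020105, plus strand: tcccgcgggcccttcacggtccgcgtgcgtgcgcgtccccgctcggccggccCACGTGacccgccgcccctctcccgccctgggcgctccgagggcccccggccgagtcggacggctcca
Ipo7, chr7:110018125-110018244, plus strand: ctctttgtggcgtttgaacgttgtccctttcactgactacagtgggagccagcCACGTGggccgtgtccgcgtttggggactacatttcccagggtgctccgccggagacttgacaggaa
Nup93, chr8:94214334-94214453, plus strand: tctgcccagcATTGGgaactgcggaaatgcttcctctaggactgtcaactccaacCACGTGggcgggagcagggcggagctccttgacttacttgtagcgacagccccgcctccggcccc
Nup188, chr2:30286296-30286415, plus strand: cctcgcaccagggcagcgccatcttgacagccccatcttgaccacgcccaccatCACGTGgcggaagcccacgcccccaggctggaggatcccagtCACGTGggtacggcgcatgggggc

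The CCAAT motif is shown in the same way for Nup155 and Ranbp1, called higher in polyps, and for Kpna2, which had no call. It begins 80 bases before the start in Nup155, 72 in Ranbp1 and 25 in Kpna2. Genes with and without a call thus carry it.
Nup155, chr15:8109173-8109292, plus strand: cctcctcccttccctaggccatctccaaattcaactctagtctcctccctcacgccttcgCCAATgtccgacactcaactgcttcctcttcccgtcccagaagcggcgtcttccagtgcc
Ranbp1, chr16:18248705-18248824, minus strand: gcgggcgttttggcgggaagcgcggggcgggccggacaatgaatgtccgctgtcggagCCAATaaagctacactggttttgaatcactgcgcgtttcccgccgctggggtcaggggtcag
Kpna2, chr11:106999526-106999645, minus strand: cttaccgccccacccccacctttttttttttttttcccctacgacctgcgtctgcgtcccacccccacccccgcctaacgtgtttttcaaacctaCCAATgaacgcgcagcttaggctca

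Of 27 genes with a window that were called higher in polyps than in Apc normal tissue, 6 held CACGTG and 14 held CCAAT. Of the 13 other genes with a window, 2 held CACGTG and 8 held CCAAT. These 13 include Kpna7 and Nup62cl, which were not tested and both held CCAAT. The E-box genes were Ipo4, Ipo7, Nup54, Nup93, Nup188 and Ran among those called, and Ranbp2 and Tnpo2 among those with no call.

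Polyps were first compared with the normal tissue of these Apc mutant mice. The transport genes were higher in polyps: 34 of the 47 were called higher and 0 lower, and 13 had no call. Over all tested genes, 20.5% were called higher and 24.9% lower. Every tested member of the outer ring, the inner ring, the nuclear basket and the Ran cycle was called higher. Of 5 importin alpha genes only Kpna3 was, a share (20%) near that of all tested genes. Differences were mostly under 2-fold: the median was 0.56 on the log2 scale, against −0.06 over all tested genes, and 5 called genes measured on all 8 arrays reached a log2 difference of 1. Nup210l, which passed the signal filter through the polyp arrays only and was not measured in Apc normal tissue, has only a bound.

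**Figure D1:**
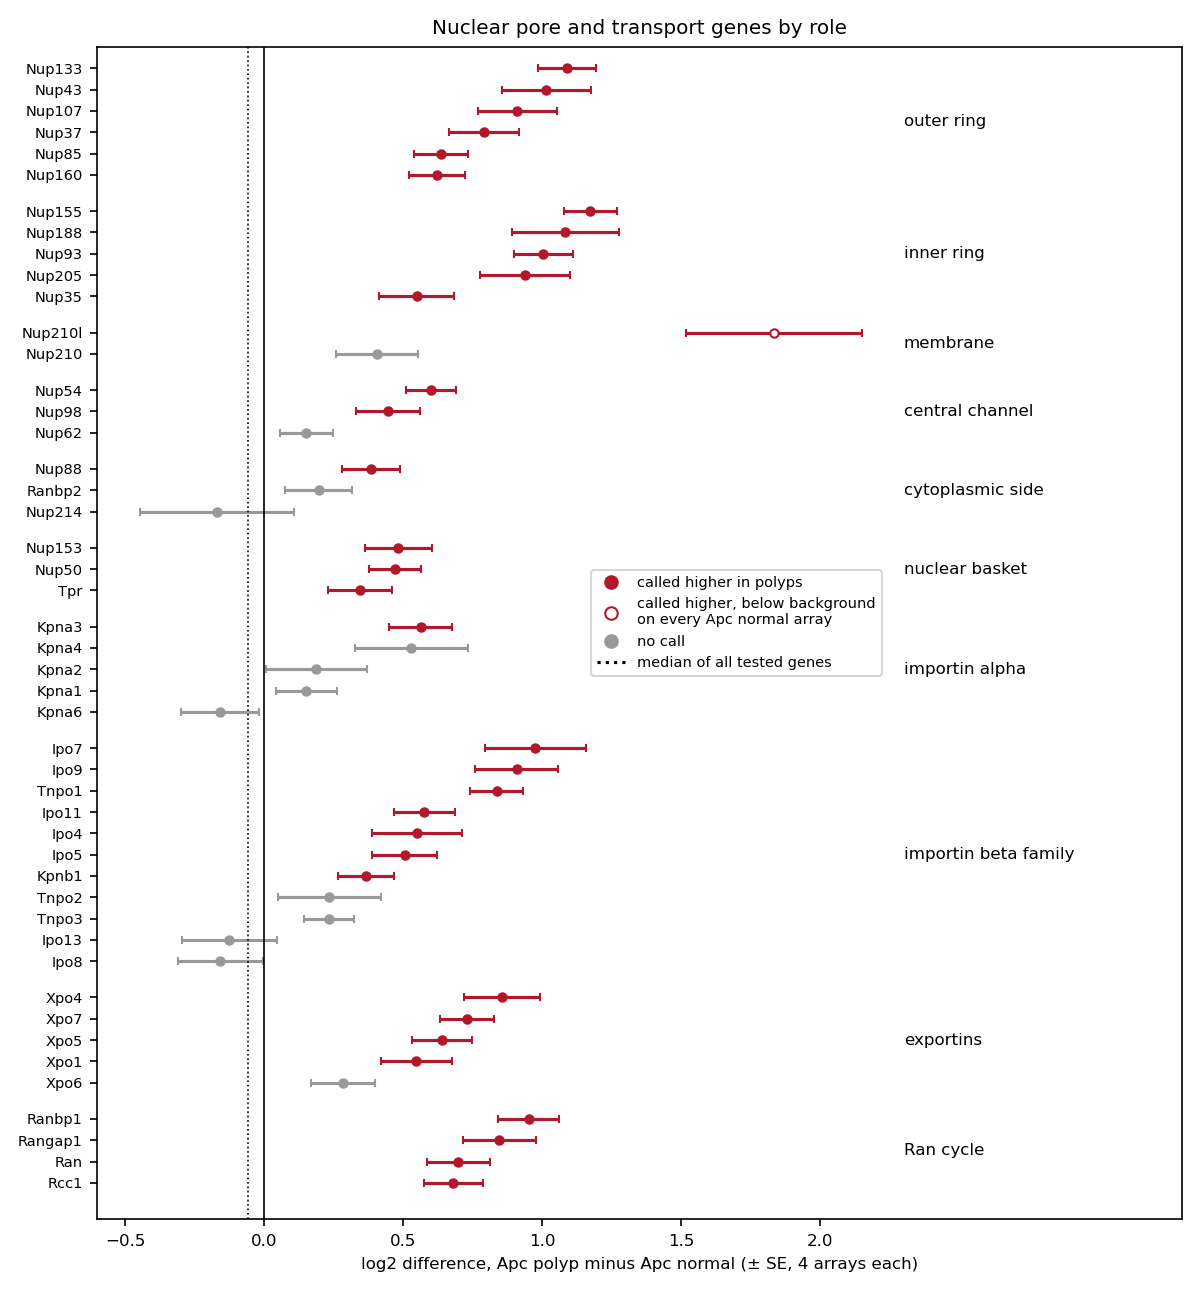
Each point is a tested gene's log2 difference, Apc polyps minus Apc normal tissue, with its SE (4 arrays each), grouped by role down the page; the dotted line is the median of all tested genes, −0.06. Outer ring, inner ring, basket and Ran cycle genes all lie above 0.34, while Ipo8, Ipo13, Kpna6 and Nup214 lie below 0.

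The values of polyps and Apc normal tissue did not overlap, with polyps higher, in 35 of 47 genes (20.5% of all tested genes), and in 0 with polyps lower (24.7%). Within single mice, the polyp was above its own normal tissue in 42, 44, 43 and 42 of 47 genes for mice 103, 106, 107 and 110. In 38 genes this held in all 4 mice, in 5 genes in 3 mice and in 4 genes in 1 mouse. The share of all tested genes higher within single mice, or in all 4, was not counted. Median within-mouse differences were 0.60, 0.61, 0.63 and 0.56 for members, against −0.08, −0.09, −0.004 and −0.09 over all tested genes. By group means, 43 of 47 members and 46.3% of all tested genes were above 0. The median level of the 47 genes was 0.82 to 0.97 on the polyp arrays, against 0.24 to 0.43 on the Apc normal arrays and 0.22 to 0.28 on the wild-type arrays. For the 47 genes, the SD over 4 arrays had a median of 0.097 in polyps, 0.166 in Apc normal tissue and 0.108 in wild-type tissue. The largest SD of a member was 0.413, 0.664 and 0.252 in the same order. The SD of all tested genes was not computed.

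**Figure D2:**
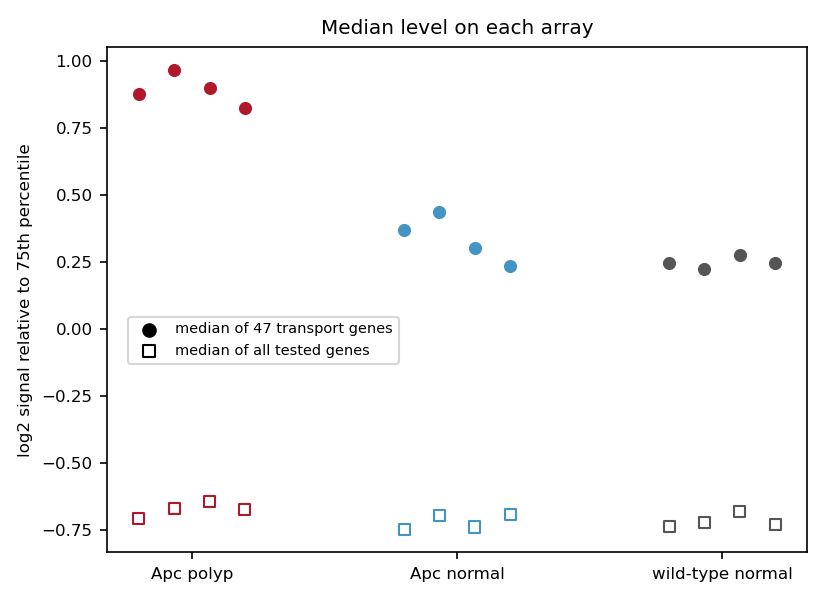
Filled circles give the median level of the 47 transport genes on each array and open squares that of all tested genes, in log2 units relative to the array's 75th percentile. Circles lie at 0.82 to 0.97 for polyps and at 0.22 to 0.43 for normal tissue of either genotype, while the squares lie between −0.75 and −0.65 in all 3 groups.

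The inner ring binds the pore to its membrane and anchors the central channel, and its members were called higher in 5 of 5 cases. In the values that follow, arrays of the mutant mice are in the order of mice 103, 106, 107 and 110. Nup155, a scaffold protein, was read by a probe on chromosome 15 at 8109569 to 8109628 (mm9). It stood at −0.43, −0.35, −0.35 and −0.41 in polyps, against −1.65, −1.59, −1.58 and −1.40 in Apc normal tissue. All polyp arrays lay about 1 log2 unit above every Apc normal array, and the difference was 1.17 ± 0.10 (SE). Within mice it ran between 0.98 and 1.25.

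Nup93, which links the scaffold to the channel, was read on chromosome 8 at 96838656 to 96838715 (mm9). Its levels were 2.41, 2.47, 2.50 and 2.55 in polyps, against 1.27, 1.48, 1.54 and 1.63 in Apc normal tissue. The groups were well apart, with a difference of 1.003 ± 0.11. The other 2 probes of Nup93 were not well above background on any array, and the mean over its 3 probes gave −0.06.

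Nup188, a large ring protein, stood at −0.79, −0.80, −1.40 and −1.25 in polyps, against −2.09, −2.15, −2.47 and −1.85 in Apc normal tissue (1.08 ± 0.19). Polyps of mice 107 and 110 were lower than those of mice 103 and 106, yet above every normal array, and its other 2 probes gave 0.69 and 0.92. Nup205, its relative in sequence, stood at 2.29, 2.42, 2.42 and 2.40 in polyps, against 1.07, 1.79, 1.32 and 1.61 in Apc normal tissue (0.94 ± 0.16). Here the spread was in the normal tissue, with mouse 106 closest to the polyps. Nup35, the smallest of the group, differed by 0.55 ± 0.13.

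The outer ring is built from the Y-shaped Nup107-Nup160 complex, which also sits on kinetochores in mitosis. All 6 of its members within the naming rule were called higher, with a median log2 difference of 0.85. Nup133, a subunit of the Y, stood at 1.09, 1.04, 1.16 and 0.96 in polyps, against 0.0093, 0.11, −0.21 and −0.03 in Apc normal tissue (1.09 ± 0.11). Nup43, a small propeller-shaped subunit, stood at 0.90, 1.28, 1.18 and 1.24 in polyps, against −0.17, 0.43, −0.0012 and 0.29 in Apc normal tissue (1.01 ± 0.16). In both genes the 2 groups were separated on every array.

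Nup107 itself stood at 2.22, 2.42, 2.32 and 2.36 in polyps, against 1.09, 1.69, 1.37 and 1.52 in Apc normal tissue (0.91 ± 0.14). The normal tissue of mouse 106 was again the highest of its group. Nup37, Nup85 and Nup160, further subunits of the Y, had differences between 0.62 and 0.79.

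The nuclear basket reaches into the nucleus and serves export of RNA and chromatin contacts. Its 3 members were called higher by small amounts. Nup153, which recruits the basket, stood at 0.63, 0.76, 0.59 and 0.45 in polyps, against 0.29, 0.13, −0.10 and 0.18 in Apc normal tissue (0.48 ± 0.12). Nup50, a cofactor that helps release imported cargo, stood at 0.01, 0.04, −0.14 and −0.03 in polyps, against −0.41, −0.48, −0.50 and −0.61 in Apc normal tissue (0.47 ± 0.09). Tpr, the filament protein, was closest to the threshold. It stood at −0.47, −0.43, −0.39 and −0.70 in polyps, against −0.77, −0.74, −1.01 and −0.85 in Apc normal tissue (0.34 ± 0.11), and its call ended under 14 of 24 alternative settings, among them mouse number as a replicate block and leaving out any polyp array but that of mouse 110.

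The channel and cytoplasmic side held fewer calls. Nup98, a repeat protein that also binds RNA export factors, stood at −1.50, −1.43, −1.42 and −1.62 in polyps, against −1.76, −2.16, −1.87 and −1.96 in Apc normal tissue (0.45 ± 0.12), and its call ended under 4 of 24 alternative settings, scaling to the median among them. Nup54, a channel protein, differed by 0.60 ± 0.09. Nup62, the partner of Nup54 in the channel, stood at 3.09, 3.11, 3.04 and 3.1 in polyps, against 3.1, 2.86, 2.87 and 2.91 in Apc normal tissue. The normal tissue of mouse 103 lay within the range of the polyps, and the difference of 0.15 ± 0.10 had no call, although it was called higher after quantile normalization (0.34).

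Nup88, which holds the export platform on the cytoplasmic side, stood at 1.10, 1.26, 1.12 and 1.17 in polyps, against 0.91, 0.70, 0.87 and 0.64 in Apc normal tissue (0.38 ± 0.10). It was the only called gene of that side, and its call ended under 5 of 24 alternative settings, among them scaling to the median and leaving out the polyp array of mouse 106. Ranbp2, the filament protein with SUMO ligase activity, differed by 0.20 ± 0.12. Nup214, the partner of Nup88, was well above background on 2 polyp arrays and 1 Apc normal array (−0.17 ± 0.28).

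Of the genes of the pore membrane, Nup210 differed by 0.41 ± 0.15 with no call. It was called higher under the 4 other scalings (array median, quantile, normexp and value table), which are not independent. The value table nearly matched array-median scaling, and normexp correction was followed by quantile normalization. A second probe of Nup210 read −0.28. Its relative Nup210l was well above background on all 4 polyp arrays, at −5.18, −4.65, −5.08 and −5.12, and on no Apc normal array, at −6.42, −6.73, −7.81 and −6.41. The polyps lay above every normal array, and Nup210l was at least 1.64-fold higher in polyps, with the bound set per array at the lowest level well above background or the probe's own level, whichever was higher.

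Genes of the Ran cycle were all called higher, by 0.68 to 0.95. Ran itself, read on chromosome 5 at 129528961 to 129529020 (mm9), stood at 5.73, 5.86, 5.86 and 5.78 in polyps, against 4.91, 5.31, 5.04 and 5.17 in Apc normal tissue (0.70 ± 0.11). A second probe of Ran gave 0.70 as well. Ranbp1, the cofactor of GTP hydrolysis, stood at 2.48, 2.59, 2.66 and 2.48 in polyps, against 1.45, 1.74, 1.52 and 1.70 in Apc normal tissue (0.95 ± 0.11). Polyps exceeded their own normal tissue by 0.78 to 1.15 in the 4 mice.

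Rcc1, the exchange factor on chromatin, stood at 1.89, 1.80, 1.77 and 1.66 in polyps, against 1.21, 0.91, 1.17 and 1.10 in Apc normal tissue (0.68 ± 0.11). Rangap1, the GTPase activator, stood at 2.88, 2.93, 2.69 and 2.47 in polyps, against 2.01, 1.96, 1.85 and 1.77 in Apc normal tissue (0.85 ± 0.13). The loading and the hydrolysis arm of the cycle thus both had every array of polyps above every array of Apc normal tissue.

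**Figure D3:**
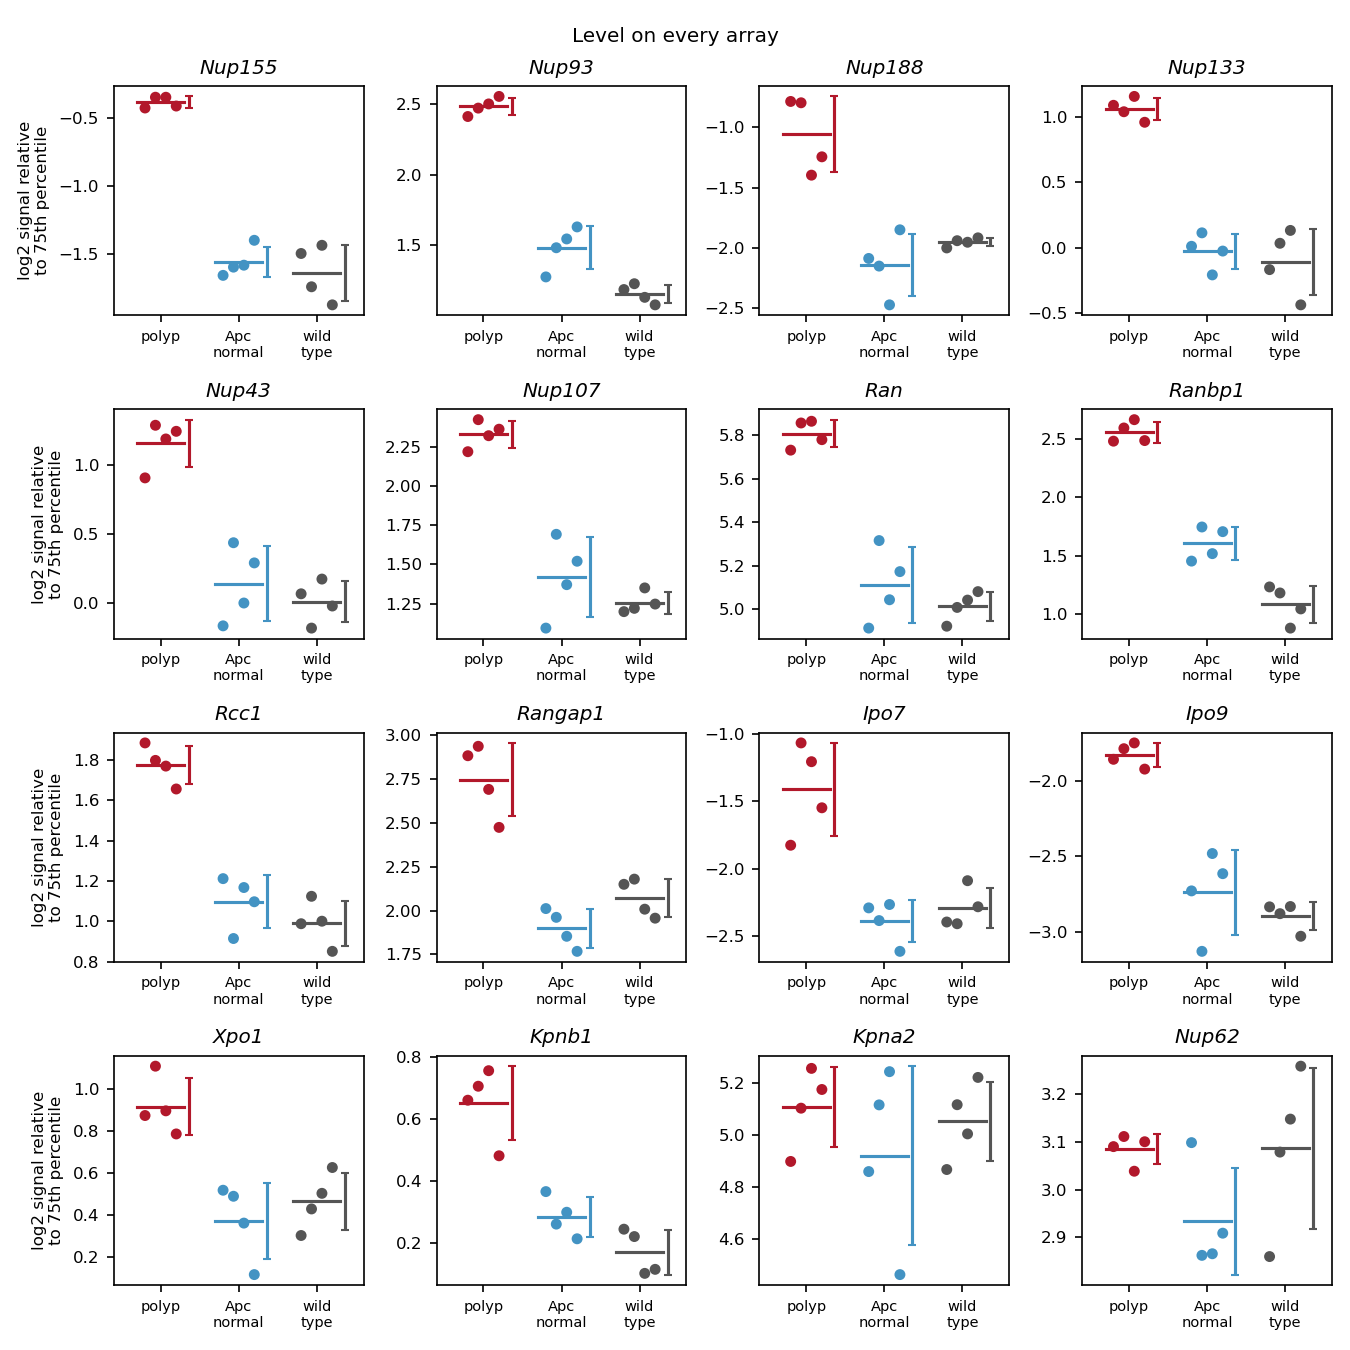
Each panel is a gene; points are single arrays, the line is the group mean and the bar its SD (n = 4), in log2 units relative to the array's 75th percentile, with polyps left, Apc normal in the middle and wild type right; axes differ between panels. Polyps lie apart from Apc normal tissue in every panel but those of Kpna2 and Nup62.

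Importins of the beta family bind the pore directly, and 7 of 11 were called higher (63.6%, against 20.5% of all tested genes). Ipo7, which carries ribosomal proteins and histone H1, stood at −1.83, −1.07, −1.21 and −1.55 in polyps, against −2.29, −2.38, −2.26 and −2.61 in Apc normal tissue (0.97 ± 0.18). The polyp of mouse 103 was the closest to normal tissue. Ipo9, a carrier of core histones, stood at −1.86, −1.79, −1.75 and −1.92 in polyps, against −2.73, −3.13, −2.48 and −2.61 in Apc normal tissue (0.91 ± 0.15). The groups were apart on all arrays.

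Kpnb1, importin beta itself, which carries most cargo through an importin alpha adaptor, differed less. It stood at 0.66, 0.71, 0.76 and 0.48 in polyps, against 0.37, 0.26, 0.30 and 0.22 in Apc normal tissue (0.36 ± 0.10), and its call ended under 7 of 24 alternative settings, among them scaling to the median and leaving out the polyp array of mouse 106 or 107. Transportin 1 (Tnpo1), the carrier of RNA-binding proteins, was called higher by 0.84 ± 0.10, with 0.52 and 0.998 on its other 2 probes. Ipo4, Ipo5 and Ipo11 had differences between 0.50 and 0.58. Tnpo2 and Tnpo3 stood at 0.23 each, Ipo13 at −0.13 ± 0.17 and Ipo8 at −0.16 ± 0.15, with no call, though Tnpo3 was called after quantile normalization.

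Importin alpha genes, the adaptors for classical import signals, had 1 call among 5 (20%), near the 20.5% of all tested genes called higher. After quantile normalization they had 2 calls, against 23.3% of all tested genes. Kpna2, the importin alpha best known from dividing cells, stood at 4.90, 5.10, 5.25 and 5.17 in polyps, against 4.86, 5.12, 5.24 and 4.46 in Apc normal tissue. The normal arrays of mice 103 and 110 lay below every polyp array and those of mice 106 and 107 within the polyp range, and the difference was 0.19 ± 0.18. Its other 3 probes gave 0.15, 0.19 and 0.22, while quantile normalization gave 0.58 and a call. Kpna3 was called higher by 0.56 ± 0.11, Kpna4 stood at 0.53 ± 0.20, Kpna1 at 0.15 ± 0.11 and Kpna6 at −0.16 ± 0.14, with 0.18 on a second probe of Kpna6.

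Exportins take proteins and RNA out of the nucleus, and 4 of 5 were called higher (80%, against 20.5% of all tested genes). Xpo1, the exporter for leucine-rich signals, stood at 0.87, 1.11, 0.90 and 0.79 in polyps, against 0.52, 0.49, 0.36 and 0.12 in Apc normal tissue (0.55 ± 0.13, and 0.98 on a second probe). Xpo5, which exports microRNA precursors, differed by 0.64 ± 0.11, Xpo7 by 0.73 ± 0.10 and Xpo4 by 0.85 ± 0.14, with 0.32 on a second probe of Xpo4. Xpo6, the exporter of actin with profilin, stood at 0.28 ± 0.11 with no call.

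Of 27 other nuclear transport genes outside the naming rule, 11 were called higher and 1 lower (20.5% and 24.9% of all genes), with a median of 0.29. Aaas, which codes for the pore protein aladin, stood at 1.42 ± 0.02 in polyps and 0.17 ± 0.27 in Apc normal tissue (SD, n = 4 each; difference 1.25 ± 0.14, limma adjusted p = 0.000346). Its membrane partner Ndc1 differed by 1.17 ± 0.16 (limma adjusted p = 0.00075) and the tRNA exporter Xpot by 1.04 ± 0.15 (limma adjusted p = 0.00106). Nxt2, a cofactor of mRNA export, was the gene called lower, at 0.42 ± 0.06 in polyps and 0.85 ± 0.18 in Apc normal tissue (−0.44 ± 0.12). Among those with no call were the ring components Seh1l (0.15 ± 0.12) and Sec13 (−0.28 ± 0.11), which belong to the Y complex as well. Both were picked with their values in view.

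Markers of dividing cells moved on the same arrays. Of 12 tested markers of dividing cells, 12 were called higher in polyps (median 1.45), and their summed level was 6.09 to 6.19 in polyps, against 4.96 to 5.12 in Apc normal tissue. All 10 smooth muscle markers were called lower (median −3.62, summed level 5.22 to 6.20 against 8.58 to 9.02), as were 7 of 9 absorptive colonocyte markers and 5 of 9 markers of colorectal epithelium. Of the colorectal epithelium list, Krt8, Epcam and Vil1 had mean log2 levels of 7.26, 3.43 and 4.34 in polyps. Their levels were 7.84, 3.79 and 5.48 in Apc normal tissue. Car1, Cdx1 and Cdx2 of the same list differed by −3.12, −1.69 and −2.37, the last with no call. Krt18 went the other way (0.38, no call). The colorectal label itself was not tested. Leukocyte markers had 1 call in each direction among 8, while the 5 tested Paneth and small intestine markers had 4 calls higher and 1 lower. Of 3 tested fat markers 1 was called lower. The part of these shifts in the transport genes' differences was not tested.

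**Figure D4:**
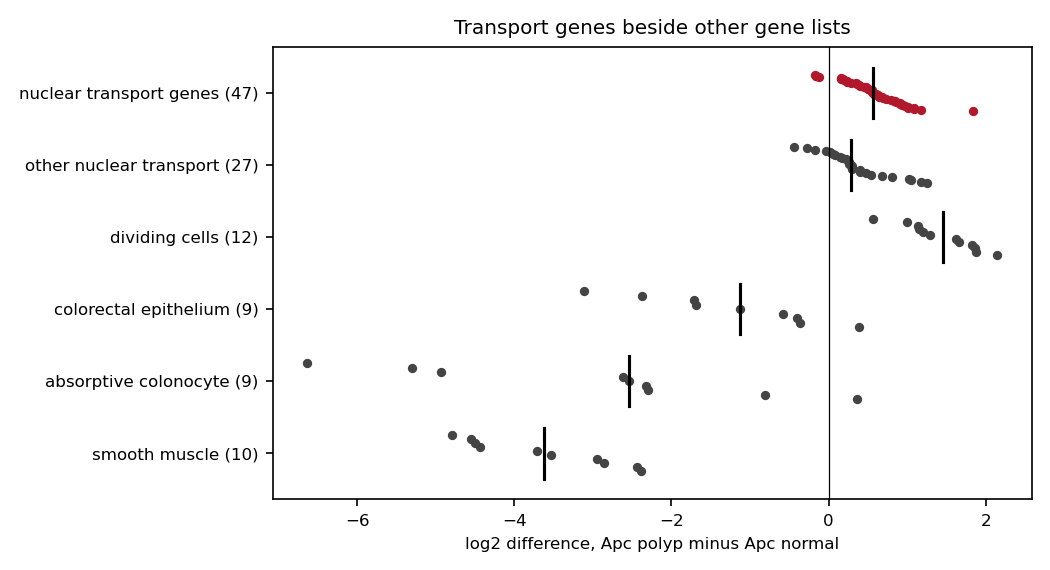
Each point is a tested gene's log2 difference, Apc polyps minus Apc normal tissue, and each bar the median of its list, with the number of genes in brackets. The 47 transport genes have a median of 0.56, dividing cell markers 1.45 and smooth muscle markers −3.62.

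The second comparison set normal tissue of Apc mutant mice against that of wild-type mice, where the transport genes differed little. None of the 47 was called by limma (0 higher and 0 lower), and 6 (12.8%) had an unadjusted p under 0.05, against 17.1% of all tested genes. Over all tested genes 0.149% were called higher and 0.0199% lower. The median difference was 0.04, against −0.02 over all genes, with 26 genes above 0 and 21 below. Slide and genotype cannot be told apart here.

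By measured level, the 3 largest differences were those of Nup214, Nup210l and Ranbp1. Nup214 stood at −5.56, −6.12, −6.65 and −5.94 in Apc normal tissue, against −5.00, −4.99, −4.85 and −4.84 in wild-type tissue (mice 102, 104, 105 and 108), where alone it was well above background on 4 arrays. It was well above background on 1 Apc normal array, so the measured difference of −1.14 ± 0.21 is uncertain in size, and with each dim array set at its floor, as for Nup210l, it was −0.70. Nup210l was well above background on no Apc normal array and on 1 wild-type array, so no fold is given. Ranbp1 stood at 1.45, 1.74, 1.52 and 1.70 in Apc normal tissue, against 1.23, 1.18, 0.88 and 1.04 in wild-type tissue (0.52 ± 0.12). Every Apc normal array of Ranbp1 lay above every wild-type array. Such a lack of overlap was seen in 3 of 47 members with Apc normal tissue higher and in 3 with it lower. The share of all tested genes without overlap was not counted. A fit of all 12 arrays called Ranbp1 higher and Nup214 lower. That fit called 0.792% of all tested genes higher and 0.334% lower, against 2.13% of members each way.

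The third comparison, polyps against wild-type normal tissue, shares the polyp arrays with the first. Here 35 of 47 genes were called higher and 3 lower, and 9 had no call, against 27.4% higher and 32.8% lower over all tested genes. The median difference was 0.67, against −0.05 over all genes, and 9 called genes measured on all 8 arrays were higher by a log2 difference of 1 or more. By role, all genes of the outer ring (6), inner ring (5), membrane (2) and Ran cycle (4) were called higher. Of the membrane genes, Nup210l was well above background on 4 polyp arrays and 1 wild-type array. It passed the signal filter through the polyp arrays only, so its call sets a measured group against one near background.

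Ranbp1 had the largest difference: it stood at 2.48, 2.59, 2.66 and 2.48 in polyps, against 1.23, 1.18, 0.88 and 1.04 in wild-type tissue (1.47 ± 0.10). Its 3 groups were thus ordered with polyps above Apc normal tissue and Apc normal tissue above wild type, without overlap between neighbours. Nup93 showed the same order, with wild-type levels of 1.18, 1.22, 1.13 and 1.08 (1.33 ± 0.08 for polyps minus wild type, 0.33 ± 0.11 for Apc normal minus wild type, the last with no call). For both genes the order rests on the wild-type slide, and the step from wild type to Apc normal tissue had no call in the main fit. They are among 3 members whose Apc normal arrays all lay above the wild-type arrays, with no share of all tested genes counted.

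The 3 genes called lower than in wild type were Nup214, Ipo13 and Kpna6. Nup214 stood at −6.17, −6.23, −6.77 and −5.77 in polyps, well above background on 2 of the 4 arrays, against −5.00, −4.99, −4.85 and −4.84 in wild-type tissue. The measured difference was −1.31 ± 0.19, and −0.94 with the dim arrays at their floor. Nup214 passed the signal filter through the wild-type arrays only, so its call sets a measured group against one near background. Polyps and Apc normal tissue of Nup214 overlapped and both lay below all wild-type arrays. Ipo13, a carrier that works in both directions, differed by −0.38 ± 0.11 and Kpna6 by −0.26 ± 0.09, with 0.09 on a second probe of Kpna6. After quantile normalization Nup214 was the only member called lower, against 29.4% of all tested genes.

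**Figure D5:**
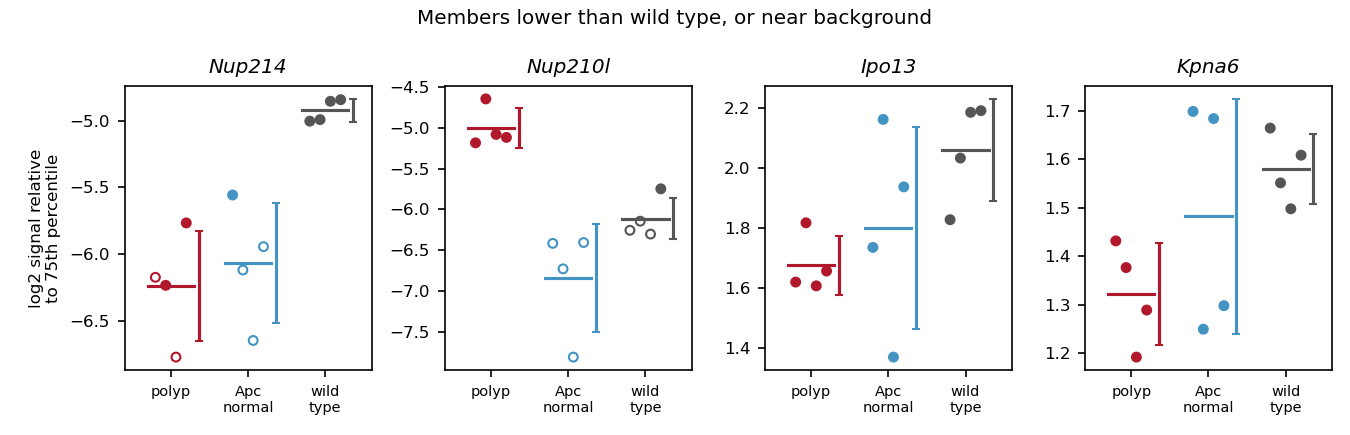
Points are single arrays in log2 units relative to the array's 75th percentile, filled where well above background, with the group mean as a line and its SD as a bar (n = 4). Nup214 lies at −5.56 or lower in polyps and Apc normal tissue and between −5.00 and −4.84 in wild type, and Nup210l was well above background on all polyp arrays and on 1 other array.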

How the data were processed

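Colorectal RNA of 12 mouse samples was hybridised to Agilent 1-colour arrays. Per the file headers and the submitters' processing notes, Agilent Feature Extraction 10.7.3.1 made the deposited spot intensity, background-subtracted and without scaling between arrays. How the deposited value table of linear ratio values was made is not stated. Its column medians were 0.99995 to 1, and 99.82% to 99.87% of its probes per array matched a constant multiple of the scanner signal to within 1%. It was used as an alternative.

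Control and outlier spots were left out, log2 signals were averaged per probe, and each array's 75th percentile was subtracted. Genes were named through RefSeq (GRCm38.p6), and the probe of highest mean stood for a gene with several. Genes entered the test if well above background on each of the 4 arrays in some group. The fits used limma 3.58.1 (lmFit and eBayes, R 4.3.3), with the 8 arrays of the comparison. The steps were tested on simulated data. Members, lists and tests were chosen with earlier results of these data known.

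Values on every array are given for the 10 highest and 6 lowest differences among called members measured on all 8 arrays without overlap, for Ran, Ranbp1, Rcc1, Rangap1, Kpna2, Kpnb1, Xpo1, Nup62, Nup98 and Tpr, and for the 3 largest differences in each other comparison. Ipo13 and Kpna6 are drawn because 3 members were called lower, chosen after their values were seen. Of the other transport genes, the 3 highest are named, and of up to 3 lowest called, the gene called lower.

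Deviations from the group means correlated between the polyp and the normal array of each mouse number (r = 0.455, 0.170, 0.143 and 0.283). These r are over genes, which are not independent replicates. Between different mouse numbers r ran from −0.329 to 0.193. The highest, normal tissue of mouse 106 with the polyp of mouse 110, exceeded the 0.170 within mouse 106. The pairing is thus taken from the shared mouse numbers in the labels, and the main fit did not use it. Alternatives were other scalings (array median, quantile, normexp with offset 50), the value table, other filters, the mean over probes, file names, a fit of all 12 arrays, other variance models, slide or mouse as a block, single slides, a 2-fold minimum and each array left out. Protein sequences were not used here.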

Additional observations from a re-analysis of the deposited data

Results flagged for a closer look

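Of 72 groups of 4 arrays checked for the genes given with every array, 1 had a single array far from the rest, where chance gives about 1 in 20. The wild-type array of mouse 108 read Tpr at −1.16, while the other wild-type arrays lay between −0.73 and −0.69.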

How the results depend on the processing

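In polyps against Apc normal tissue 30 to 34 members were called higher without each array in turn, and 0 lower under every setting. Without each array, these were 63.8% to 72.3% of members, against 16.4% to 19.7% of all tested genes. Over all tested genes 4.89% to 28.2% were called lower, depending on the setting. With mouse number as a replicate block 33 members were higher (70.2%, against 20.8% of all tested genes), and Tpr lost its call. The block changed no other call of the genes given with every array. A 2-fold minimum left 6 (12.8% of members, against 9.1% of all tested genes), Nup210l with its bound of 1.64-fold among them. Slide 2 alone, with 2 arrays a group, left 7 (14.9% against 7.33%), and slide 3 alone 3 (6.38% against 4.58%). The 27 other transport genes went from 12 calls, counted in both directions, to 4, 3 and 2 under these settings. There 11.8%, 9.93% and 4.89% of all tested genes were called lower, beside the shares higher given above. In Apc normal against wild-type tissue, a fit of all 12 arrays and slide as a random block each called 1 member higher and 1 lower. These were Ranbp1 and Nup214. Each was 2.13% of members, against 0.792% and 0.334% of all tested genes in the fit of 12 arrays. With the slide block 2.33% and 1.73% of all tested genes were called, so the members lay near that share. All wild-type arrays and no others were on slide 1, so this block cannot separate slide from genotype. The fitted correlation within slides was −0.082. Array weights gave 1 member lower (Nup214, against 0.134% of all tested genes). Leaving out arrays gave 0 to 1 lower (Nup214, without the Apc normal array of mouse 103, against 0.996% of all tested genes). The median difference there was −0.0080 with the value table. In polyps against wild-type tissue, 1 member (2.13%) was lower after quantile normalization (29.4% of all genes) or in the fit of all arrays (30.7%). A 2-fold minimum left 10 higher (21.3% against 11.7%) and 1 lower (2.13% against 14.0%). Nup210l and Nup214 were among them by measured level (0.77 and −0.94 with dim arrays at their floor). The median was 0.60 after normexp correction. Nup93 turned to −0.0587 as a mean over its probes, 2 of them below background. Nup214 (−0.17, no call) turned to 0.0096 after normexp correction, 0.027 on slide 3 alone, and lay between −0.363 and 0.0090 without each array in turn. Elsewhere the cause was not tested. Of 574 values of single genes over the planned settings, 511 kept direction and call. Low signal limits Nup214 and Nup210l; the floor for dim arrays was chosen after seeing the data, and with it Nup210l turned to 0.062 in Apc normal against wild-type tissue.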
